A study of Mus musculus with 12 samples.

Results

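The 36 genes described here encode the subunits of voltage-gated sodium and calcium channels, the membrane proteins that carry the action potential and turn it into calcium entry. They were taken by symbol from the 24421 genes of the deposited count table, as every gene named Cacna1, Cacna2, Cacnb or Scn with a subunit letter, and Cacng1, Cacng5, Cacng6 and Cacng7. The members are 10 sodium channel alpha genes, 4 sodium channel beta genes, 10 calcium channel alpha1 genes, 4 alpha2delta genes, 4 calcium channel beta genes and 4 gamma genes. A gene was tested when at least 10 counts were found in 6 or more of the 12 libraries, and 32 of the 36 passed.

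RNA was sequenced from both striata of C57BL/6J males offered 20% ethanol in the Drinking-in-the-Dark procedure, in which ethanol is offered for 2 h beginning 3 h into the dark phase. The saline group (6 libraries) was injected with saline, and the varenicline group (6 libraries) received 2 mg/kg varenicline, a partial agonist of nicotinic acetylcholine receptors. In each of 3 drinking cycles of 2 days, an injection was given 30 min before the second day's drinking. In the first cycle this was saline for all animals, and in the other 2 cycles it was the assigned substance. All libraries therefore come from ethanol-drinking animals, and no library without ethanol is analysed here. Age and the number of mice behind a library are details not given in the sources used here. Accordingly, p-values measure only the spread between these libraries, part of which may be technical.

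A voltage-gated sodium channel is a single large alpha subunit that forms the pore, opens on depolarization and inactivates within milliseconds, joined by small beta subunits with an immunoglobulin-like outer domain that adjust gating and cell adhesion. A voltage-gated calcium channel has a related alpha1 pore, and in the high-voltage-activated types an intracellular beta subunit and an outer alpha2delta subunit promote its delivery to the membrane. The Cav2 channels trigger transmitter release, Cav1 channels couple activity to gene expression, and Cav3 channels open near rest and shape firing. In striatum, projection neurons fire from a hyperpolarized resting state, and Scn4b, whose product supports resurgent sodium current, is known as a gene of high striatal expression.

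Library totals ran from 13340420 to 27917715 counts. Known markers of striatal projection neurons were all detected, with a summed level of 8427 to 13254 CPM (counts scaled to the same library total) in saline and 9139 to 14699 CPM in varenicline libraries, which goes with the striatal label. All 14 of them were higher with varenicline, 6 at an unadjusted p under 0.05, as were 11 of 12 oligodendrocyte markers, again 6 at that threshold. Of all tested genes, 7.27% were higher and 9.64% lower at the same threshold in edgeR. The 12 cortical excitatory neuron markers were also all above 0. Of these, 11 were lower with varenicline, 10 at an unadjusted p under 0.05, and their sum ran from 785 to 1312 CPM in saline and from 233 to 1130 CPM in varenicline libraries. In varenicline 6 the cortical score, the mean log2 CPM of the list, was 5.49, inside the saline range of 4.88 to 5.64, whereas the other varenicline libraries lay between 2.84 and 4.43. All 6 septal markers were higher with varenicline at an unadjusted p under 0.05, and their score was highest in varenicline 1 and 3, at 3.80 and 3.63, against at most 2.37 with saline. Because these lists move with the groups, results below are also given from a fit that includes the cortical score, or that omits varenicline 6. That library was singled out from these same data, so p-values without it are no independent evidence of a difference. The cortical scores of the groups overlap only through varenicline 6, so the fit with the score separates group from score only weakly. How far RNA of these cell types accounts for any difference was not tested. In bulk tissue, fewer cells of a type and less RNA per cell cannot be told apart.

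Levels between genes were compared per length, in RPKM (CPM divided by the exon length in kilobases), and the order below is of RPKM averaged over all 12 libraries. Scn4b was the highest of the 36 genes at 368 ± 70.8 RPKM (SD, n = 12), and another sodium channel beta gene, Scn2b, stood at 88.3 ± 5.94 RPKM. Cacna2d3 stood at 74.7 ± 10.2 RPKM, Cacng7 at 71.5 ± 10.6 RPKM and Cacnb3 at 64.2 ± 13.2 RPKM, whose ranges overlapped. These are all genes of auxiliary subunits, and the highest pore gene was Scn2a1 at 36.1 ± 2.50 RPKM. A limit of this scale is that the exon model of Cacng7, like that of Cacng6, holds the coding part alone.

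**Figure D1:**
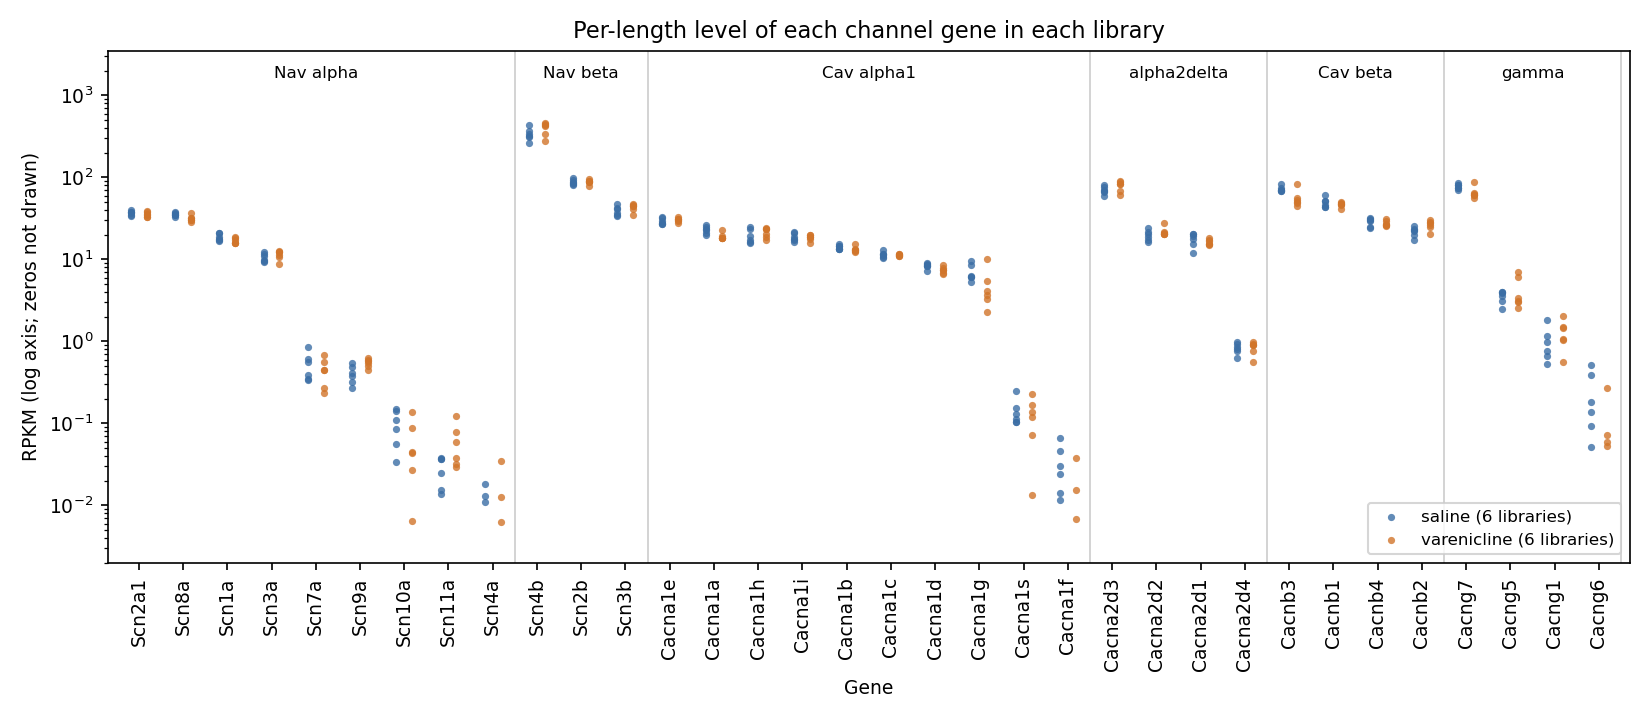
Per-length level (RPKM, log axis) of 34 channel genes in each of the 12 libraries, grouped by subunit family and ordered within each family by the saline mean; blue points are saline and orange points varenicline libraries, and values of 0 are not drawn. Scn4b has the highest points, and Scn4a, Cacna1f and Scn11a the lowest.

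Channels of other excitable tissues were close to the detection limit. Scn4a, the skeletal muscle sodium channel, had 15 counts over all 12 libraries, Cacng6 had 32, and the retinal Cacna1f 35. None of the 3 reached 10 counts in any library. Just outside the testing limit was Scn11a, a sodium channel of pain-sensing neurons, with 66 counts and 2 libraries at 10 or more. Just inside it was its neighbour Scn10a, with 123 counts and 6 such libraries. Cacna1s, the skeletal muscle calcium channel, had 210 counts. The level that 3 counts represent, a floor for counting error alone, was 0.107 CPM in the deepest library and 0.225 CPM in the shallowest. This floor uses raw library totals, not the scaled totals behind the other CPM values.

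None of the 32 tested genes passed an adjusted p of 0.05 in edgeR's quasi-likelihood test, and of all 15111 genes tested 0% did. At an unadjusted p under 0.05 there were 2 members higher with varenicline, Cacnb2 and Scn9a, and 6 lower, among them Cacna1a, Cacnb3, Cacng7, Scn8a and Cacna1d. The lower share was 18.8% of the members against 9.64% of all tested genes, and the higher share 6.25% against 7.27%. In either direction these were 8 of 32 members, or 25%, against 16.9% of all tested genes. DESeq2 called 0 members at its adjusted p (2.63% of all genes) and gave no adjusted p for 4 scarce members, Cacna1s, Cacng1, Scn7a and Scn10a. Its unadjusted p was under 0.05 for 2 members on the higher side (7.8% of all genes) and 6 on the lower side (9.73%). The median log2 fold change, varenicline minus saline, was -0.03 over the 32 members and 0.0074 over all genes, with 13 members above and 19 below 0, where 47.7% of all genes were below 0. For 0 members did the CPM ranges of the groups fail to overlap, where 0.754% of all tested genes did not overlap.

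Leaving out varenicline 6 gave 7 members past the adjusted p of 0.05 in edgeR, 6 lower and 1 higher, where 10.6% of all genes passed, 7.58% lower and 3.06% higher. At an unadjusted p under 0.05 that fit had 6 members higher (11.3% of all genes) and 9 lower (14.5%). They included Cacnb3, Cacng7, Cacna1a, Cacna1g and Scn8a on the lower side and Cacnb2 on the higher side. When the cortical score was a covariate over all 12 libraries, 0 members passed, where 0.0794% of all genes did. In that fit the unadjusted p was under 0.05 for 0 members on the higher side (3.02% of all genes) and 0 on the lower side (1.89%). The same covariate in DESeq2 gave 0 members past the adjusted p (0.152%), and at an unadjusted p under 0.05 it gave 0 higher (3.08%) and 0 lower (1.8%). With both settings together 0 passed the adjusted p (0% of all genes), and at an unadjusted p under 0.05 there was 1 member higher, Cacnb2 (5.44% of all genes). On the lower side there were 5 (5.25%), among them Cacna1a, Cacnb3, Cacng7 and Cacng1, of which Cacng1 was above 0 in the fit without either change. Their log2 differences there were -0.39 for Cacna1a, -0.31 for Cacnb3 and -0.40 for Cacng7, larger in size than with the covariate over all 12 libraries. Without varenicline 6 the cortical scores of the groups did not overlap, so that fit cannot tell the group apart from the score. Over all 12 libraries they overlapped through varenicline 6 alone, so smaller differences with the covariate there are not read as a sound adjustment. Limma-voom, which weighted varenicline 6 and saline 6 least, called 12 members (13.9% of all genes), 5 higher (4.84%) and 7 lower (9.07%). Its unadjusted p was under 0.05 for 9 members higher (13%) and 10 lower (15.7%).

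**Figure D2:**
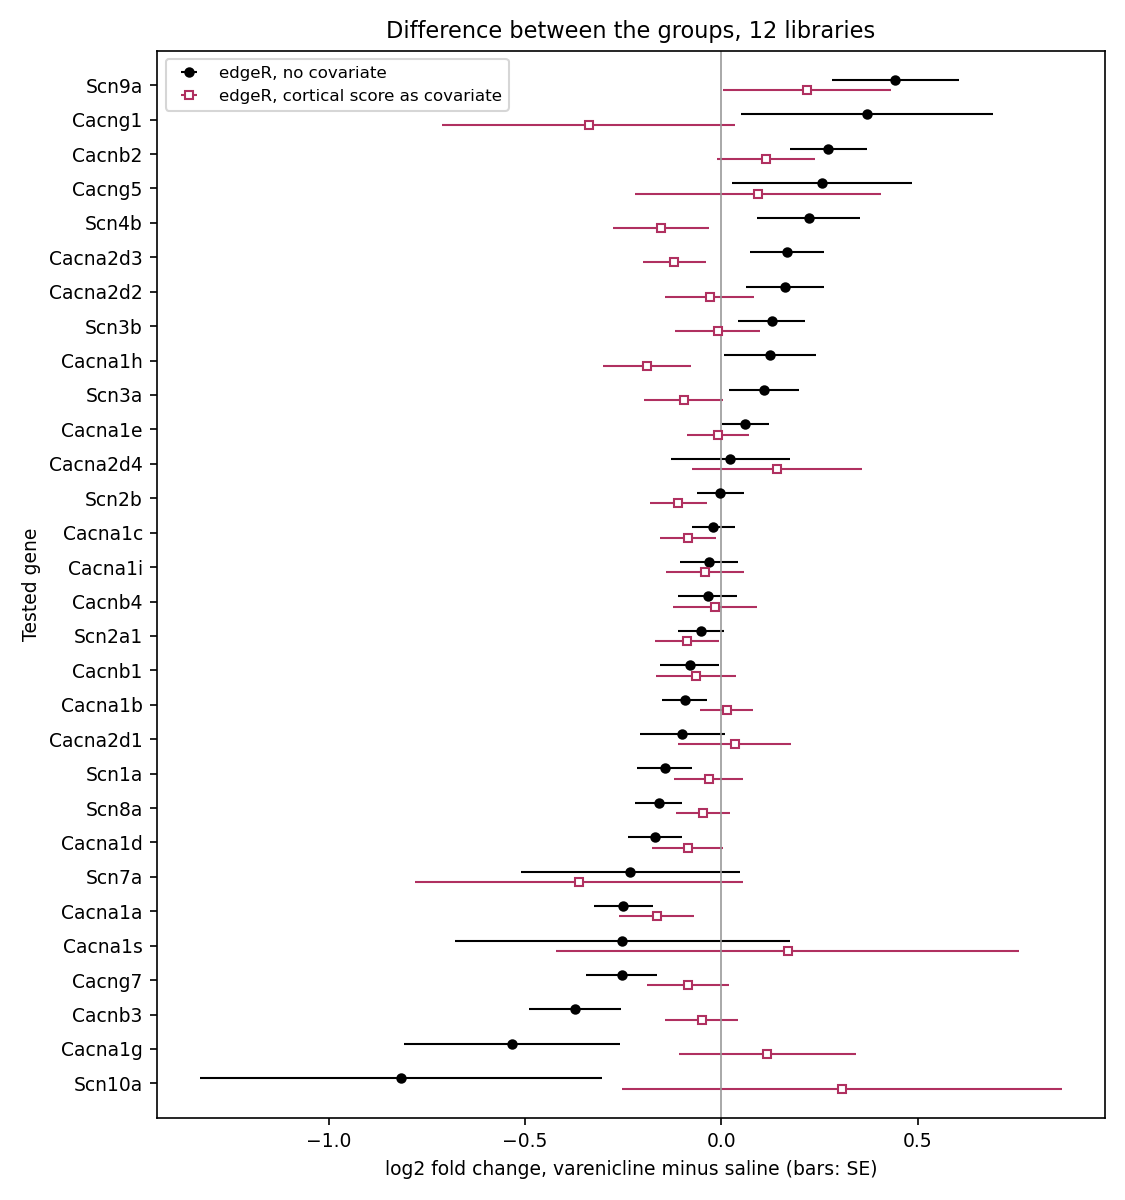
Log2 fold change of 30 of the tested genes (x axis, varenicline minus saline, bars are SE) in edgeR alone (filled circles) and after inclusion of the cortical score (open squares). For Cacnb3 the value went from -0.37 to -0.05.

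Among the sodium channel alpha genes, Scn2a1 (Scn2a, Nav1.2), Scn8a (Nav1.6), Scn1a (Nav1.1) and Scn3a (Nav1.3), the 4 pore genes of the brain, made up nearly all of the summed RPKM of the family. Their shares were 35.7%, 34.4%, 18.2% and 10.2% on average over the saline libraries and 36.4%, 32.6%, 17.4% and 11.7% over the varenicline libraries. Scn2a1 and Scn8a stood at 36.1 ± 2.50 and 33.5 ± 2.96 RPKM (SD, n = 12), with overlapping ranges. The remaining 6 alpha genes each averaged below 1% of the family in both groups.

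Scn8a, the main channel of the mature axon initial segment and nodes, lies on chromosome 15 (mm10, 100870645 to 101045938, plus strand). Its lowest, median and highest levels were 371, 407 and 429 CPM with saline and 329, 356 and 421 CPM with varenicline. The 5 lowest libraries were all varenicline libraries, and varenicline 6 was inside the saline range. On the log2 scale the difference was -0.16 (SE 0.059; adjusted p = 0.198 in edgeR), -0.21 without varenicline 6 (edgeR adjusted p = 0.0137; over all alternatives 0.0137 to 0.9997), and -0.05 with the cortical score. With both changes it was -0.16.

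Scn2a1, the axonal and dendritic channel of projection neurons, lies on chromosome 2 (65670445 to 65767447, plus strand). It had 291, 322 and 352 CPM with saline and 282, 305 and 340 CPM with varenicline, so the groups overlapped over most of their range. Its difference of -0.05 on the log2 scale had a 95% interval of -0.18 to 0.07. Scn1a, the channel of fast-spiking interneurons, differed by -0.14 (SE 0.070; adjusted p = 0.311 in edgeR), and Scn3a, a channel prominent before birth, by 0.11 (SE 0.089).

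Scn9a, best known from peripheral sensory neurons, lies on chromosome 2 (66480081 to 66634962, minus strand). It was scarce, with 2.72, 3.93 and 5.43 CPM with saline and 4.45, 5.59 and 6.24 CPM with varenicline. All 6 varenicline libraries were above the saline mean of 4.01 CPM, and the groups overlapped. Its fitted log2 difference was 0.44 (SE 0.161, adjusted p = 0.192 in edgeR, over all alternatives 0.0358 to 0.9997), and 0.22 (SE 0.214) with the cortical score. A gene on the opposite strand, Gm13629, covers 3.21% of its exon length, and use of strand in counting is a detail not given in the sources used here.

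Scn7a, which encodes a sodium sensor and not a voltage-gated pore, differed by -0.23 (SE 0.279), and Scn10a by -0.82 (SE 0.511) at levels near the floor.

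Among the sodium channel beta genes, Scn4b (chromosome 9, 45139042 to 45154061, plus strand), the beta4 subunit, had 1099, 1382 and 1861 CPM with saline and 1166, 1827 and 1936 CPM with varenicline. Of the varenicline libraries, 4 were above the saline mean, and varenicline 6 was the lowest of its group. Varenicline minus saline came to a log2 value of 0.22 (SE 0.131; adjusted p = 0.3998 in edgeR), with a 95% interval of -0.06 to 0.50, and it turned to -0.15 with the cortical score. Scn3b, or beta3, differed by 0.13 (SE 0.086), and Scn2b, or beta2, by -0.0025 (SE 0.059), the smallest difference among the members.

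Of the calcium channel alpha1 genes 9 were tested, 2 above and 7 below 0. Per length, the highest was Cacna1e, which encodes the R-type Cav2.3 pore, with 23.2% of the family's summed RPKM. Cacna1a (P/Q-type Cav2.1), Cacna1h and Cacna1i (T-type Cav3.2 and Cav3.3) followed at 21.01, 20.3 and 18.6 RPKM, with overlapping ranges. The L-type genes Cacna1c and Cacna1d stood at 11.4 and 7.91 RPKM.

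Cacna1a (chromosome 8, 84415364 to 84640249, plus strand), the main presynaptic calcium channel of most central synapses, had the smallest p among the members. It had 156, 181 and 206 CPM with saline and 144, 145 and 183 CPM with varenicline. Varenicline 1 to 5 lay between 144 and 152 CPM, below every saline library. In log2 terms the difference was -0.25 (SE 0.075; adjusted p = 0.147 in edgeR, DESeq2 adjusted p = 0.0569). Without varenicline 6 it was -0.31 (edgeR adjusted p = 0.00603, over all alternatives 0.00603 to 0.9997), and with the cortical score -0.17 (SE 0.096).

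Cacna1d (chromosome 14, 30039941 to 30491156, minus strand), the L-type Cav1.3 pore that opens at lower voltages than Cav1.2, had 66.8, 79.4 and 85.4 CPM with saline and 62.3, 69.3 and 79.1 CPM with varenicline. The groups overlapped, with the lowest saline library, saline 6, inside the varenicline range. The groups differed in log2 by -0.17 (SE 0.068, adjusted p = 0.227 in edgeR, over all alternatives 0.00854 to 0.9997), and -0.09 with the cortical score. With both changes it was -0.20. Exons of Chdh on the opposite strand cover 5.62% of its exon length.

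Cacna1g (chromosome 11, 94408391 to 94474198, minus strand), the T-type Cav3.1 pore, is added after its values were seen because it was among the 7 genes without varenicline 6. It had 44.1, 51.1 and 77.8 CPM with saline and 18.5, 32.0 and 84.0 CPM with varenicline. The lowest of all 12 libraries was varenicline 5 and the highest varenicline 6, so the spread within the varenicline group exceeded the difference between the means. Fitted over all libraries, the log2 difference was -0.53 (SE 0.276; adjusted p = 0.338 in edgeR), -0.90 without varenicline 6 and 0.12 with the cortical score. With both changes it was negative again, at -0.37.

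Of the remaining alpha1 genes, none had an unadjusted p under 0.05. Cacna1e (chromosome 1, 154392519 to 154725920, minus strand) had 338, 361 and 413 CPM with saline and 352, 388 and 416 CPM with varenicline, a log2 difference of 0.06 with a 95% interval of -0.07 to 0.19. Cacna1b, the N-type Cav2.2 pore, differed by -0.09 (SE 0.056) and was higher in varenicline 6, at 149.6 CPM, than in its group's other libraries, at 121 to 131 CPM. Cacna1c, the L-type Cav1.2 pore, had -0.02 (SE 0.054), Cacna1i -0.03 (SE 0.074) and Cacna1h 0.12 (SE 0.117). The scarce Cacna1s had -0.25 with a 95% interval of -1.16 to 0.65, and its value turned to 0.17 with the cortical score and to 0.86 when varenicline 6 was also left out. Exons of Tpsg1 on the opposite strand cover 1.90% of the exon length of Cacna1h.

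**Figure D3:**
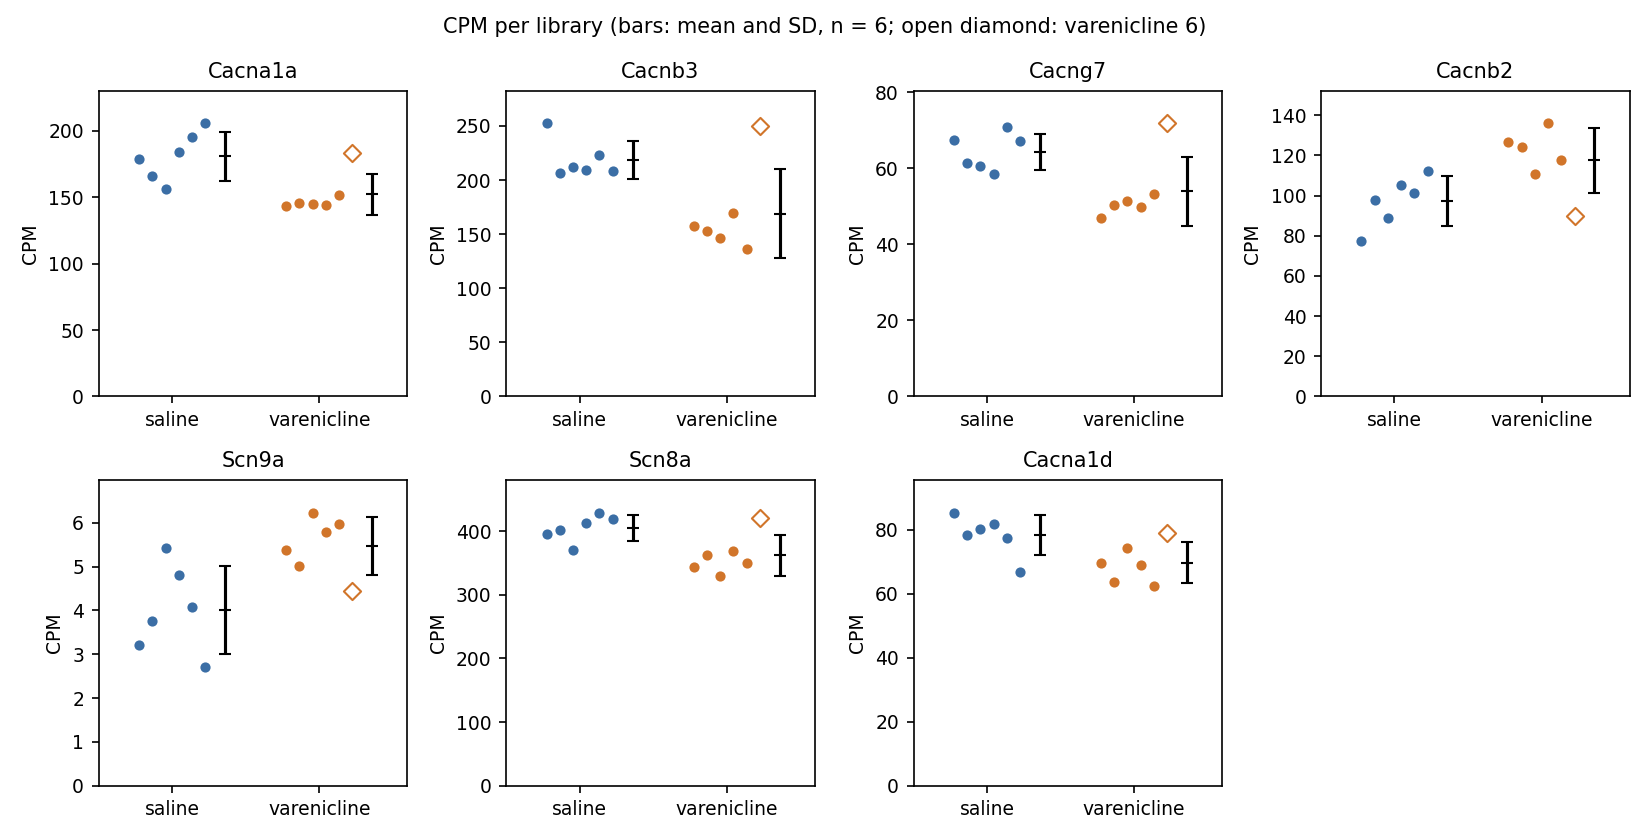
CPM of 7 genes with an unadjusted edgeR p under 0.05, 1 point per library with replicates 1 to 6 from left to right (an arbitrary order), the mean and SD (n = 6) beside them, and varenicline 6 as an open diamond. For Cacnb3, Cacng7, Cacna1a and Scn8a the other 5 varenicline libraries are below every saline library.

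Among the alpha2delta genes, targets of the gabapentinoid drugs in the case of the first members of the family, Cacna2d3 took 65.7% of the summed RPKM. Cacna2d3 (chromosome 14, 28904943 to 29721864, minus strand) had 221, 258 and 301 CPM with saline and 228, 309 and 332 CPM with varenicline. Of the varenicline libraries, 4 were above the saline mean, and the groups overlapped. On the log2 scale this was 0.17 (SE 0.094; adjusted p = 0.376 in edgeR), and -0.12 with the cortical score. Cacna2d2 differed by 0.16 (SE 0.098), and by -0.03 with the cortical score. All 6 varenicline libraries were above its saline mean, 5 of them inside the saline range. Cacna2d1 differed by -0.10 (SE 0.107) and the scarce Cacna2d4 by 0.02 (SE 0.152). None of the 4 had an unadjusted p under 0.05.

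The calcium channel beta genes, which encode the intracellular subunits that bind the alpha1 I-II linker, held a gene on either side. Cacnb3 (chromosome 15, 98632328 to 98644536, plus strand) had 206, 211 and 252 CPM with saline and 136, 155 and 250 CPM with varenicline. Varenicline 1 to 5 lay between 136 and 170 CPM, below every saline library, and varenicline 6 was close to the highest saline library. The fitted log2 value was -0.37 (SE 0.118; adjusted p = 0.156 in edgeR, DESeq2 adjusted p = 0.0557). Without varenicline 6 it was -0.52 (edgeR adjusted p = 0.000456; over all alternatives 0.000456 to 0.9997), and with the cortical score -0.05 (SE 0.093).

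Cacnb2 (chromosome 2, 14604306 to 14987908, plus strand) had 77.4, 99.4 and 112 CPM with saline and 89.6, 121 and 136 CPM with varenicline. Of the varenicline libraries, 5 were above the saline mean, and varenicline 6, the lowest of its group, was below it. In log2 terms this was 0.27 (SE 0.098; adjusted p = 0.191 in edgeR), 0.34 without varenicline 6 (edgeR adjusted p = 0.0150; over all alternatives 0.00579 to 0.9997), and 0.11 with the cortical score. With both changes it was 0.34. Cacnb1 differed by -0.08 (SE 0.075) and Cacnb4 by -0.04 (SE 0.076). As a share of the family's summed RPKM, Cacnb3 averaged 42.1% ± 3.16 with saline and 35.4% ± 5.62 with varenicline, and Cacnb2 12.7% ± 1.52 and 17.0% ± 2.80 (SD, n = 6). Cacnb1 and Cacnb4 differed by less than these spreads, with 28.7% and 29.9% for Cacnb1 and 16.5% and 17.7% for Cacnb4.

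**Figure D4:**
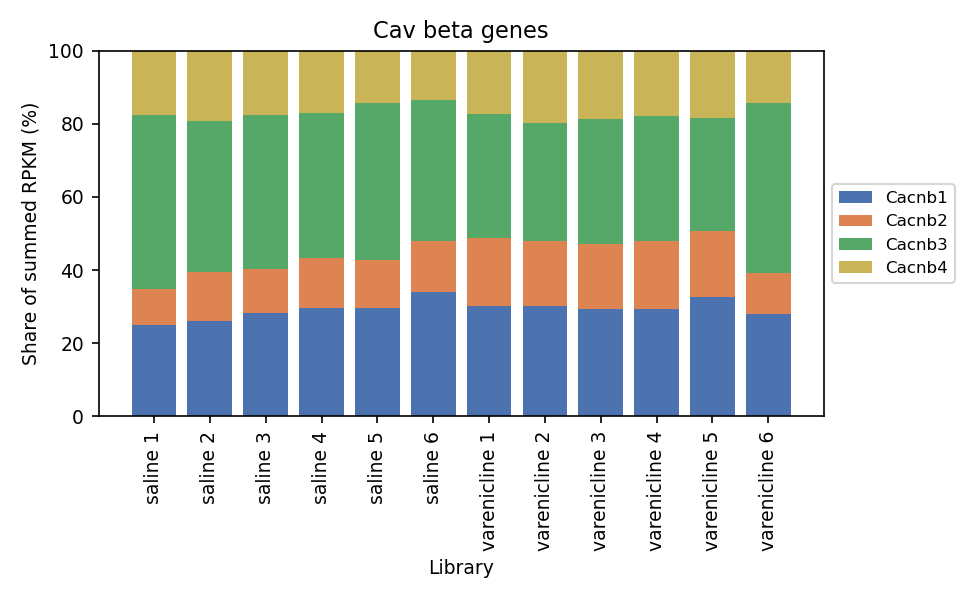
Share of each gene in the summed RPKM of the calcium channel beta genes, 1 bar per library. The share of Cacnb3 spans 38.6% to 47.6% in saline libraries and 30.9% to 46.5% in varenicline libraries, the highest of the latter being varenicline 6.

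Promoter windows from RefSeq (GRCm38.p6, 250 bases before to 50 after the start) were found for 26 of the 36 members, and where a gene had several starts the one nearest to the start of its exon model was taken. The windows of Cacnb3 and Cacnb2, the beta genes on opposite sides, are shown together with that of Cacna1d, the member with a TATA match. They lie at chr15:98632078-98632377 on the plus strand, chr2:14604056-14604355 on the plus strand and chr14:30491107-30491406 on the minus strand. Capitals mark matches, on either strand, to the GC box GGGCGG, the TATA box TATAAA, the cAMP response element TGACGTCA or the E box CACGTG, and in Cacna1d 2 TATA matches on opposite strands overlap.
Cacnb3: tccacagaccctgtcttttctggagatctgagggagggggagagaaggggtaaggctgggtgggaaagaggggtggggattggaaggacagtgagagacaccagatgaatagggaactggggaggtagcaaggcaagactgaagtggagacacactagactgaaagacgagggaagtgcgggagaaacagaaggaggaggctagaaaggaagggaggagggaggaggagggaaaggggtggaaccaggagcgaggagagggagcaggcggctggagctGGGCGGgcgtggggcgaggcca
Cacnb2: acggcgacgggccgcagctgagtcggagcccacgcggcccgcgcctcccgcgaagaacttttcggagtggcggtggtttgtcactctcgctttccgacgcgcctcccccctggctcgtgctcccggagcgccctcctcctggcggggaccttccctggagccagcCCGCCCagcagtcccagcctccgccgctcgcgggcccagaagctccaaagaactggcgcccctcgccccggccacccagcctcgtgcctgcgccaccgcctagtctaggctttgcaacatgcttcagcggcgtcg
Cacna1d: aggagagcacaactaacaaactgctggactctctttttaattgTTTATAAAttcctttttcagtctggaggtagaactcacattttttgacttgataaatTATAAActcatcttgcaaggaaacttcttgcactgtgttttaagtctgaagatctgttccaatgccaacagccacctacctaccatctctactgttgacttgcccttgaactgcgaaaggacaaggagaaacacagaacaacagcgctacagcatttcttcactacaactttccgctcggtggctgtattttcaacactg

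Cacnb3 and Cacnb2 each held 1 GC box match, and their windows had 7 and 35 CG dinucleotides. A GC box match was found in 13 of the 26 member windows and in 35.7% of all 32851 windows. The TATA box letters were in 1 member window, that of Cacna1d with 3 matches, and in 13.6% of all windows. In Cacna1d the 3 matches lie well before the start, nearer to the upstream end of the window. The cAMP response element and the E box were in 0 member windows, against 1.79% and 7.15% of all. These matches describe the letters of the windows, and no measurement here shows a factor bound there.

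Of the gamma genes 3 were tested. Cacng7 (chromosome 7, 3336585 to 3366948, plus strand), a relative of the skeletal muscle gamma1 subunit that also associates with AMPA-type glutamate receptors, had 58.6, 64.3 and 70.9 CPM with saline and 46.9, 50.9 and 71.9 CPM with varenicline. Varenicline 1 to 5 were below every saline library and varenicline 6 above every one. On the log2 scale the difference was -0.25 (SE 0.090; adjusted p = 0.187 in edgeR). Without varenicline 6 it was -0.35 (edgeR adjusted p = 0.00176; over all alternatives 0.00176 to 0.9997), and with the cortical score -0.09 (SE 0.104). Its RefSeq start lies 3760 bases before the coding-only model of the count table, so reads from its untranslated ends were not counted. Cacng5, a relative of Cacng7 singled out after its values were seen, differed by 0.26 (SE 0.229) and was highest in varenicline 1 and 3, at 27.0 and 23.6 CPM, the libraries with the highest septal score, against at most 15.4 CPM in the saline libraries. Cacng1, the skeletal muscle subunit, differed by 0.37 (SE 0.321). The 9 skeletal muscle markers summed to 5.51 to 9.99 CPM in saline and 5.91 to 8.10 CPM in varenicline libraries. Only 4 of these scarce markers were tested, and all 4 were lower with varenicline (median log2 fold change -0.28). Whether muscle RNA bears on Cacng1 was not tested.

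The position of varenicline 6 was shared by the members at an unadjusted p under 0.05. Of the 6 members on the lower side, varenicline 2 and 5 were below every saline library for all 6, varenicline 1, 3 and 4 for 5, and varenicline 6 for 0. These 6 were picked by their difference in the same libraries, so low values in most varenicline libraries follow from the choice. Over all 32 tested members varenicline 6 was inside the saline range for 24, and the other varenicline libraries for 15 to 20. Varenicline 6 was below every saline library for 4 of the 32, and the other varenicline libraries for 8 to 11. By cortical score, too, varenicline 1 to 5 lay below every saline library. Cacna1g was less clear, since varenicline 1, at 44.4 CPM, was level with saline 6, at 44.1 CPM.

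**Figure D5:**
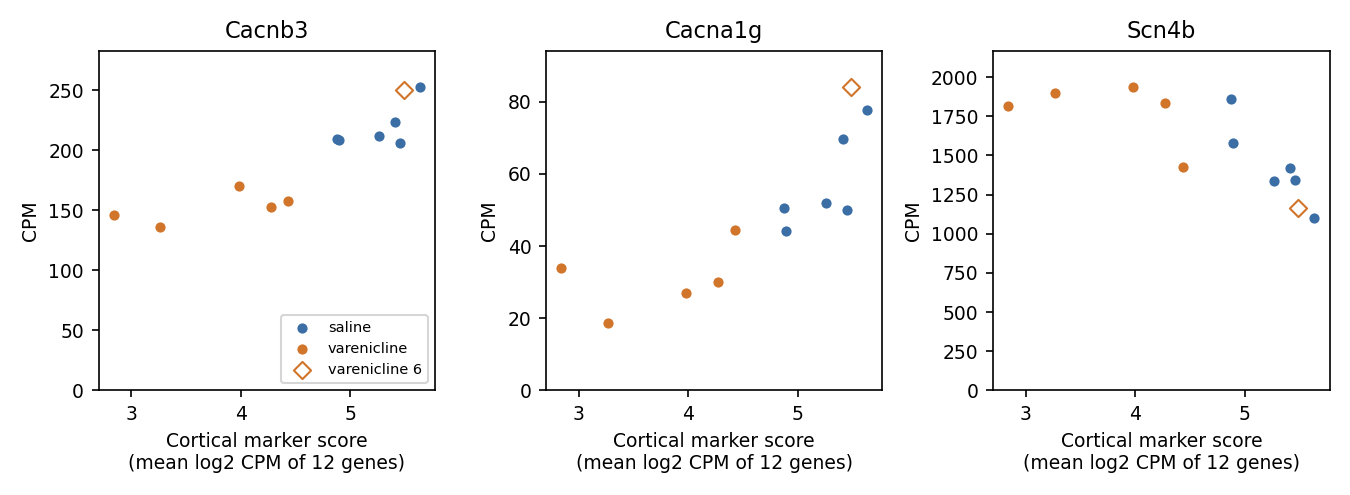
CPM of Cacnb3, Cacna1g and Scn4b (y axis) against the cortical marker score (x axis, mean log2 CPM of 12 genes) in the 12 libraries; blue points are saline, orange points varenicline, and the open diamond varenicline 6. Varenicline 1 to 5 have scores of 2.84 to 4.43 and varenicline 6 a score of 5.49, within the saline range of 4.88 to 5.64.

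Genes whose products work with these channels were read from lists chosen with earlier results of these data known. Of 14 sodium channel partners, all tested, 6 were lower (9.64% of all genes) and 0 higher (7.27%) by the unadjusted p, and 0 passed the adjusted p in edgeR. They included the cell adhesion protein gene Nrcam (log2 fold change -0.22, from 318 to 274 CPM), Sptan1, which encodes alpha-spectrin (-0.19), the anchoring protein gene Ank2 (-0.18) and Prrt2, a sodium channel modulator linked to movement disorders (-0.26). Ank3, which encodes the ankyrin that gathers sodium channels at the axon initial segment, is added after its value was seen, and differed by -0.0013 (SE 0.056). Of 19 calcium channel partners, 3 were higher and 7 lower at that threshold, beside the same shares of all genes. Rims1, an active zone scaffold that tethers Cav2 channels, had -0.54 (from 140 to 96.6 CPM), Calm3, a calmodulin gene, had -0.25, the scaffold gene Erc1 had -0.17, and Stac3, an adaptor of the muscle channel, had 0.51 at 3.34 and 4.73 CPM. After the cortical score was included, 0 sodium channel partners and 2 calcium channel partners, both higher, had an unadjusted p under 0.05, where 3.02% of all genes were higher and 1.89% lower.

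The 4 gamma relatives that are known as partners of AMPA-type receptors, Cacng2, Cacng3, Cacng4 and Cacng8, gave 0 higher (7.27% of all genes) and 1 lower (9.64%), Cacng2 at -0.16 (SE 0.064). Voltage-gated potassium channels, which end the action potential, were read as 42 genes by name, among them the non-coding Kcnd3os and Kcnq1ot1. Of the 38 tested, the unadjusted p was under 0.05 for 2 on the higher side (7.27% of all genes) and 14 on the lower side (9.64%), with a median log2 fold change of -0.13. Kcna6 had -0.33 (from 123 to 97.9 CPM), Kcnv1 -0.41 and Kcnh7 -0.68, and Kcng3 had 0.51. After the cortical score was included, 1 was higher (3.02% of all genes) and 0 were lower (1.89%) at that threshold.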

How the data were processed

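Per the labels' protocols, libraries made with an Illumina TruSeq kit were read as single reads. The deposited counts are whole numbers per gene, not normalized, and the submitters' processing notes name mm10 with TopHat2, featureCounts, Trimmomatic, FastQC, Cuffnorm, Cuffdiff and DESeq2. Their versions and the annotation are details not given in the sources used here. FPKM values deposited by the authors, and a deposited signal of scaled counts that its file name credits to Cuffnorm, served as alternatives.

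Genes with at least 10 counts in 6 or more libraries (15111) were scaled by TMM and tested, varenicline against saline, with edgeR 4.0.16 (quasi-likelihood F test, R 4.3.3) and Benjamini-Hochberg adjustment over all of them, at a threshold of 0.05. CPM use TMM-scaled totals, and RPKM also the exon length in the count table, per the file headers. SE come from the fit's F statistic. Log2 marker scores used a prior count of 2. Scripts were tested on simulated data. Members and lists were chosen with earlier results of these data known.

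Named in full are members at an unadjusted p under 0.05 and the highest per-length member of each family; in the other lists, the 4 of smallest p, and further examples chosen after their values were seen. The lists also held interneuron, glial, endothelial and choroid plexus markers. Replicates were numbered in deposition order, which pairs no samples. No 2 libraries were alike within sampling noise (66 pairs, lowest chi-square per degree of freedom 5.90). All 36 members matched the place of the same gene in GENCODE vM21. Alternatives were DESeq2 1.42.0, limma 3.58.1 (voom with sample weights, and on log2 of FPKM or Cuffnorm values), other size factors and filters, the cortical score as a covariate, and each library left out. Values of 2 members are not reported here. Figures were drawn with matplotlib 3.10.9.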

Additional observations from a re-analysis of the deposited data

Results flagged for a closer look

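In 82 sets of 6 values (the CPM of each of 30 tested genes and the score of each of the 11 cell type lists, by group), 1 library lay well outside the rest of its group in 8. Chance alone would give about 1 in 20 sets, or 4.1, for normally distributed values. The sets share the same 12 libraries and are not independent, so 8 beside 4.1 is no test of an excess. Of the 8, 4 concerned varenicline 6, as the highest of its group. Its values were 249.9 CPM for Cacnb3 (others 136 to 170), 183 CPM for Cacna1a (others 144 to 152), 149.6 CPM for Cacna1b (others 121 to 131) and 71.9 CPM for Cacng7 (others 46.9 to 53.4). The cortical score of the same library, 5.49, was also the highest of its group.

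Varenicline 3 stood apart for Cacna2d2 at 154 CPM, with the others of its group at 113 to 119 CPM. In the saline group, saline 1 stood apart for Cacnb3 at 252 CPM (others 206 to 224), saline 3 for the scarce Cacna1s at 1.55 CPM (others 0.652 to 0.971), and saline 6 for the oligodendrocyte score at 8.48 (others 8.25 to 8.31).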

How the results depend on the processing

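Over 746 refits of single members, 668 kept their direction and their side of the threshold, 17 were newly past it and 61 changed sign. Other size factors, other filters, DESeq2 and limma on FPKM or Cuffnorm values called 0 members. Limma-voom with sample weights called 12 members (13.9% of all genes), 5 higher and 7 lower, and by unadjusted p 9 higher and 10 lower; its weight for varenicline 6 was 0.411 and for saline 6 0.340, the lowest of the 12. Leaving out each library gave 0 to 7 members past the adjusted p, and by unadjusted p 2 to 6 higher and 5 to 9 lower. The 7 came without varenicline 6 (10.6% of all genes), and every other omission gave 0. Without saline 4 or saline 6 there were 4 higher by unadjusted p. For omissions other than varenicline 6 the share of all genes was not computed, so their counts are not read as changes of the members. With the cortical score, edgeR and DESeq2 gave 0 higher and 0 lower, and edgeR without varenicline 6 gave 1 higher and 5 lower; that fit estimates 1 more coefficient from scores that differ between the groups. No paired analysis was possible because the labels give every library the same replicate number.

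Signs turned as follows, in log2 fold change. In edgeR with the cortical score: Cacna1s 0.17, Cacna1e -0.0082, Cacna1g 0.12, Cacng1 -0.34, Cacna2d3 -0.12, Cacna1h -0.19, Cacna1b 0.014, Scn3a -0.096, Cacna2d1 0.034, Scn3b -0.0095, Scn4b -0.15, Cacna2d2 -0.030 and Scn10a 0.31. In DESeq2 with that score: Cacna1s 0.21, Cacna1e -0.0053, Cacna1g 0.11, Cacng1 -0.33, Cacna2d3 -0.12, Cacna1h -0.19, Cacna1b 0.017, Scn3a -0.093, Cacna2d1 0.036, Scn3b -0.0064, Scn4b -0.15, Cacna2d2 -0.027 and Scn10a 0.44. In edgeR with the score and without varenicline 6: Cacna1s 0.86, Cacng1 -1.06, Cacna2d3 -0.11, Cacna1h -0.31, Cacnb4 0.16, Scn2a1 0.022, Scn7a 0.17, Cacna2d1 0.19, Scn4b -0.067, Cacna2d2 -0.20 and Scn10a 1.40. In limma-voom: Cacnb1 0.0095, Cacna1i 0.038, Cacna1c 0.024 and Scn2b 0.073. Scn2b, at -0.0025 with the settings of the report, also had 0.0036 with upper-quartile factors, 0.0018 with the filter of 1 CPM, 0.0014 without a filter and 0.0026 with each pseudocount on FPKM. Leaving out each library, Scn2b ran from -0.026 to 0.037, Cacna1s from -0.57 to 0.0073, Cacna1i from -0.066 to 0.012, Cacna1c from -0.050 to 0.024, Cacna2d4 from -0.047 to 0.12 and Cacnb4 from -0.074 to 0.0010. The cause of these changes was not tested. Scn10a and Cacna1s could not be fitted under stricter filters, which test fewer genes.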
